A study of Homo sapiens with 24 samples.

Results

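JJN3 cells exposed to panobinostat for 24 h were compared with JJN3 cells given vehicle. The 6 libraries, 3 per group, were taken by their labelled cell line and treatment from the 24 libraries of the series. JJN3 is an established human line of malignant plasma cells with a translocation that drives the transcription factor gene MAF. It is labelled p53-null, although its genotype entry reads wild type, and every JJN3 result comes from this 1 line. Both groups were cultured in RPMI-1640 medium with fetal bovine serum, the treated group with panobinostat at 50 nM and the control group with what the labels call vehicle. The 6 other groups of 3, all after 24 h, served for comparison: JJN3 with CX-5461 at 500 nM or with both drugs at those doses, and the myeloma line MM1.S, labelled p53 wild type, with vehicle, panobinostat at 50 nM, CX-5461 at 500 nM or both. The last 2 of these entered only the fit of both lines.

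Histone deacetylases (HDACs) take acetyl groups off lysines of histones and other proteins, and on histones they work mostly inside corepressor complexes that keep genes low. Panobinostat is a hydroxamic acid that binds the zinc in the active site of these enzymes, inhibits most of them, and is used against multiple myeloma. Myeloma cells keep the programme of plasma cells, in which IRF4, PRDM1 and XBP1 hold the secretory state and MYC feeds growth. CX-5461 acts on RNA polymerase I, the enzyme that makes ribosomal RNA.

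The labels name both polyA-selected TruSeq libraries and 3′ RNA-seq, and do not say how far reads were confined to transcript ends. Total counts were 5376306, 5682259 and 6687473 in the vehicle libraries and 6230765, 4751893 and 5101724 in the panobinostat libraries (replicates 1, 2 and 3). Levels are given as CPM, the share of a library's total counts scaled as usual, and 3 counts in 1 of these libraries corresponded to 0.449 to 0.631 CPM. Whether the replicates were separate cultures is not stated, so the p-values reflect the scatter of these libraries, and that may be technical only. Of 14 plasma cell markers 11 had a mean of at least 1 CPM in both JJN3 groups. Their summed level was 5620 to 6690 CPM with vehicle and 4670.0 to 6006 CPM with panobinostat. CD27 was at 0, and CD38, a defining plasma cell antigen, had 1 count over each group of 3 libraries. Replicate 2 stood apart: on the second principal component of the 12 JJN3 libraries (8.51% of the variance) its 4 libraries lay at -25.6 to -13.9, and on the leading component (63% of the variance) panobinostat replicate 2 lay at 13.6, between the other panobinostat libraries (38.5 and 36.1) and the vehicle libraries (-48.1 to -41.3). For many of the results, but not all, the value with a block for the replicate number, or without a library, is given too.

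Panobinostat moved a large share of the measured genes, and rises were larger than falls. Of 11411 genes tested, 1716 rose (15.0%) and 1248 fell (10.9%), that is 26.0% called at an adjusted p under 0.05 in edgeR's quasi-likelihood test. The median log2 fold change was 1.18 among the genes that rose and -0.65 among those that fell, against 0.00533 over all genes. At least a 2-fold rise was called for 1005 genes (8.81%) and at least a 2-fold fall for 219 (1.92%). Beyond 4-fold there were 459 rises and 16 falls, and beyond 8-fold 221 rises and 0 falls. When the model held a block for the replicate number the spread was smaller, with a biological coefficient of variation of 0.0901 against 0.154, and 4784 genes were called, 2561 higher (22.4%) and 2223 lower (19.5%). A gene list whose counts lie near these shares, or near 15.0% and 10.9% without the block, is not set apart from other genes. These included 2960 of the 2964 calls made without the block. Leaving out panobinostat replicate 1 left 1957 calls, 1144 higher and 813 lower, of which 1885 were among the calls made with all libraries. None of the calls kept when 1 library was left out had the other sign. In 22.6% of all genes tested every panobinostat library was above every vehicle library in CPM, and in 15.5% every one was below. Groups that do not overlap are therefore common among all genes.

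**Figure D1:**
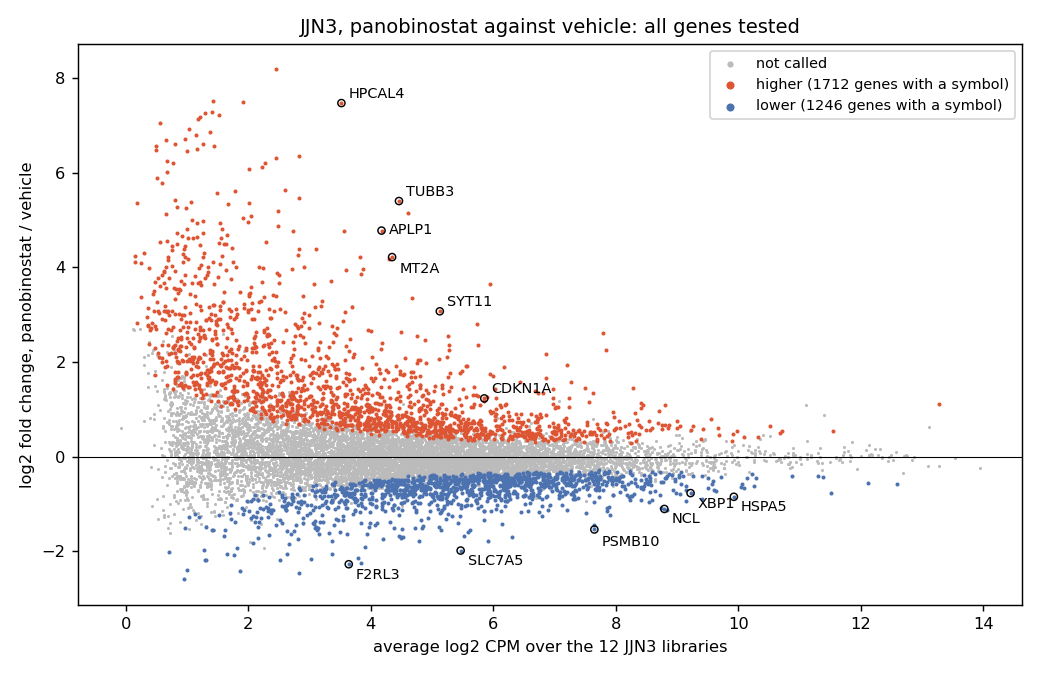
Log2 fold change of panobinostat over vehicle in JJN3 (vertical axis) against average log2 CPM over the 12 JJN3 libraries (horizontal axis), 1 point per gene tested that has a symbol, with called genes in colour and some genes of the text circled. The points above 3 on the vertical axis, an 8-fold rise, lie mostly at low average levels, and no called gene lies below -3.

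The balance of rises and falls followed the level of the gene. Among the 2853 genes with the lowest mean levels (0.589 to 6.555 CPM), 677 rose and 91 fell, or 23.7% and 3.19%. Among the 2853 genes with the highest (56.55 CPM and above), 278 rose and 546 fell, or 9.74% and 19.1%. Long noncoding RNA genes rose more often than protein-coding genes: 146 of 527 rose (27.7%) and 18 fell (3.42%), against 1535 (14.4%) and 1222 (11.5%) of 10625. A low gene can pass the count filter and the test more easily by rising than by falling, so these shares describe the calls. At an equal depth of 4751893 counts, 14660, 14323 and 15101 genes had at least 1 count in the panobinostat libraries and 13549, 13645 and 13874 in the vehicle libraries. The means were 14695 ± 390.2 and 13689 ± 167 genes (SD, n = 3), a difference of 1005 genes with no overlap of the groups. The exact two-sided permutation test gave p = 0.1, the smallest that 3 against 3 libraries allow.

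Genes known from neurons and synapses were among the largest rises. Of 47 neuronal genes listed 21 passed the count filter, of which 16 rose and 0 fell (15.0% of all genes rose). Nothing is read from that count, because some of the 21 could enter the test only through treated libraries. Among them HPCAL4, L1CAM, KIF5C, BEX2 and MAP1A had 1 or 2 counts over the vehicle libraries. TUBB3 and APLP1 had 7 and 16 there, and at most 0.848 and 1.19 CPM with CX-5461. Adjusted p values of these genes carry the same limit. HPCAL4, a calcium sensor of the visinin family, had 0, 0.176 and 0 CPM with vehicle and 18.8, 5.47 and 17.2 CPM with panobinostat. With 1 count over the vehicle libraries and 231 over the panobinostat libraries its ratio was 255, with a 95% exact counting interval of 45.3 to 10100 and an edgeR adjusted p of 8.04e-06. TUBB3, the tubulin used to mark neurons, had 0.186, 0.528 and 0.449 CPM with vehicle and 28.4, 7.36 and 16.7 CPM with panobinostat (log2 fold change 5.40 ± 0.84, edgeR adjusted p = 0.000875). For both genes every panobinostat library was above every vehicle library, and panobinostat replicate 2 was the lowest of the 3. APLP1, a relative of the amyloid precursor protein, had 1.12, 0.704 and 0.897 CPM with vehicle and 36.1, 11.6 and 28.8 CPM with panobinostat (log2 fold change 4.78 ± 0.43, edgeR adjusted p = 3.23e-06). SYT11, a synaptotagmin of vesicle membranes, had 5.58, 6.86 and 4.49 CPM with vehicle and 58.9, 36.8 and 48.4 CPM with panobinostat (log2 fold change 3.07 ± 0.23, edgeR adjusted p = 3.06e-07). MAP2, a microtubule protein of dendrites, was already present with vehicle and had 49.1, 48.8 and 51.4 CPM with vehicle and 172, 118 and 191 CPM with panobinostat (log2 fold change 1.66 ± 0.16, edgeR adjusted p = 3.86e-06). In these 3 genes too the groups did not overlap. VAMP2, a vesicle fusion protein, was the most abundant listed gene without a call, with 13.4, 25.5 and 20.2 CPM with vehicle and 22.6, 31.4 and 23.5 CPM with panobinostat and overlapping groups (edgeR adjusted p = 0.438). The other 26 listed genes were left out by the filter on low counts, with at most 4 counts over the vehicle libraries and at most 20 over the panobinostat libraries, and among them SYN1, SNAP25, CHGA and NEFL had 0 counts in both groups. REST, the repressor that keeps neuronal genes low in other tissues, had 56.7, 47.9 and 54.4 CPM with vehicle and 41.2, 48.2 and 54.7 CPM with panobinostat and was not called (edgeR adjusted p = 0.435).

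Outside that list the largest rises came from genes of many kinds. DACT3, an inhibitor of Wnt signalling, had 0.186, 0.8799 and 0.598 CPM with vehicle and 20.5, 12 and 15.3 CPM with panobinostat (log2 fold change 4.76 ± 0.44, edgeR adjusted p = 3.23e-06). SLC17A7, the vesicular glutamate transporter of excitatory neurons, had 1.12, 1.58 and 1.79 CPM with vehicle and 32.3, 26.7 and 25.7 CPM with panobinostat (log2 fold change 4.18 ± 0.32, edgeR adjusted p = 4.35e-07). Its panobinostat libraries were the closest to each other among the 11 largest rises named, including replicate 2. SEZ6L2, a membrane protein known from neurons, had 0.744, 0.704 and 0 CPM with vehicle and 11.6, 6.73 and 11.8 CPM with panobinostat, and NEURL1B, a ubiquitin ligase of the Notch pathway, had 0.558, 2.11 and 0.748 CPM with vehicle and 19.3, 11.6 and 24.1 CPM with panobinostat. They rose by 4.38 ± 0.50 and 3.97 ± 0.41 on the log2 scale, at edgeR adjusted p values of 1.4e-05 and 7.42e-06. MAGEF1, of the MAGE family, CRIP2, a LIM domain protein, and PTPRU, a receptor tyrosine phosphatase, rose by 4.22 ± 0.55, 3.95 ± 0.46 and 3.85 ± 0.43 on the log2 scale. By the rule that chose the largest rises the groups do not overlap in any of them.

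**Figure D2:**
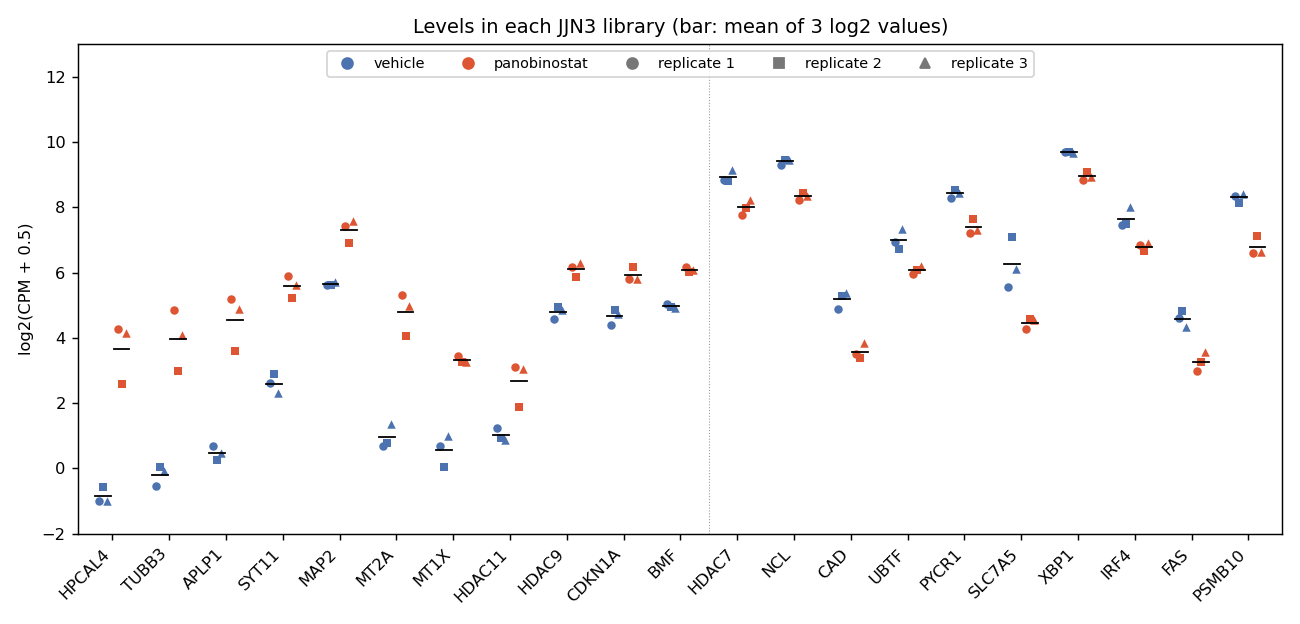
Level of 21 genes in each of the 6 JJN3 libraries as log2(CPM + 0.5), with vehicle in blue, panobinostat in orange, a symbol for each replicate number and a bar at the mean of the 3 log2 values. Genes left of the dotted line rose and genes right of it fell, and in each of the 21 the highest library of the lower group lies below the lowest library of the higher group. Over all genes tested the panobinostat libraries were all above the vehicle libraries in 22.6% and all below in 15.5%.

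Some genes had no count at all without the drug. In 30 genes called higher the 3 vehicle libraries summed to 0 counts, and in 0 genes called lower did the panobinostat libraries sum to 0. CTTNBP2NL, a protein of a phosphatase complex, had 42, 12 and 48 counts with panobinostat (6.74, 2.52 and 9.41 CPM) and was at least 37.5-fold higher, taking 3 counts over the vehicle group as the limit (edgeR adjusted p = 2.9e-05). CD40, a receptor of B cells that activates NF-kB, had 30, 8 and 25 counts and was at least 23.2-fold higher (edgeR adjusted p = 0.000156). SEMA6B, CCDC184, DSP, TNNI3 and LBH, of which DSP codes for a desmosome protein and TNNI3 for the cardiac troponin inhibitor, were at least 20.2, 19.9, 19.1, 18.8 and 17.7-fold higher. All 7 had counts in each of the 3 panobinostat libraries. Like all 30, they could enter the test only through treated libraries, and they were chosen by their panobinostat counts. Nothing is therefore read from their adjusted p values. Over all genes, including those the filter removed, 21 had 0 counts with vehicle and at least 30 with panobinostat. The reverse was seen for 1 gene, MRPS18B, whose 30 counts were all in vehicle replicate 2, and which was named after its values were seen. A transcript made in few cells and one made at a low level in many cannot be told apart in bulk RNA, and the same holds for fewer cells of a type and less RNA per cell.

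Metallothioneins, small cysteine-rich proteins that hold zinc and copper, rose with panobinostat. Their transcription follows zinc through the factor MTF1, which binds metal response elements in their promoters. The promoters of MT2A (chr16:56608334-56608633, plus strand) and MT1X (chr16:56682220-56682519, plus strand) are shown because these 2 members were called and have a promoter among the sequences used. Both members were also called whichever library was left out. The promoters are the 300 bases around the start of each gene in the RefSeq table on GRCh38.p14. Capitals mark the core of a metal response element (TGCACNC or TGCGCNC, on either strand).
MT2A: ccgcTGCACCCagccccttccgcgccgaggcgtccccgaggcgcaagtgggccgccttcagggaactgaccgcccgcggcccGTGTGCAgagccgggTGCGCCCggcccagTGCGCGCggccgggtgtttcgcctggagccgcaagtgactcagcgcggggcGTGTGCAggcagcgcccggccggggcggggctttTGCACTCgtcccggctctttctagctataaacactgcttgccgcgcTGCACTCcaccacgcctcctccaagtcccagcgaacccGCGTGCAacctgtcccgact
MT1X: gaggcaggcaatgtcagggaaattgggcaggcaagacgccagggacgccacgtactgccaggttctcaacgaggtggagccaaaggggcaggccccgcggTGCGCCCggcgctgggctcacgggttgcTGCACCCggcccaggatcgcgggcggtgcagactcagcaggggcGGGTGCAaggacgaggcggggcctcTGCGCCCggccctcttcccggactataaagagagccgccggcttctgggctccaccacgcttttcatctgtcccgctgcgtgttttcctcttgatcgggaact
The core occurred 8 times in the MT2A promoter and 4 times in that of MT1X. It was found at least once in 29.3% of all promoters of the table and in 40.0% of those of the genes tested, so a single match is common, and a match is a description of letters only. MT2A had 1.12, 1.23 and 2.09 CPM with vehicle and 39.3, 16.2 and 30.8 CPM with panobinostat (log2 fold change 4.22 ± 0.37, edgeR adjusted p = 2.58e-06). MT1X had 1.12, 0.528 and 1.495 CPM with vehicle and 10.4, 9.05 and 9.02 CPM with panobinostat (log2 fold change 3.11 ± 0.43, edgeR adjusted p = 7.26e-05). Neither gene had overlapping groups, and in MT1X the 3 panobinostat libraries were close to each other. MT1G had 0.558, 0 and 0.299 CPM with vehicle and 8.67, 0.842 and 2.35 CPM with panobinostat (log2 fold change 3.75 ± 1.04, edgeR adjusted p = 0.0163), carried mostly by panobinostat replicate 1, without which the adjusted p was 0.118, and leaving out vehicle replicate 2 or 3 gave 0.0626 or 0.0622. SLC30A1, the zinc exporter of the cell surface that responds to the same factor, had 0.93, 1.23 and 0.897 CPM with vehicle and 1.76, 2.74 and 1.37 CPM with panobinostat and was not called (edgeR adjusted p = 0.255). The 6 other listed members were under the count filter, with at most 2 counts over the vehicle and 14 over the panobinostat libraries. Metallothionein genes are near-identical copies of each other, so the split of counts among them is uncertain.

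The largest falls were smaller and came from genes that were expressed at a moderate level with vehicle. F2RL3, a thrombin receptor, had 17.9, 22.5 and 24.8 CPM with vehicle and 3.69, 5.89 and 4.31 CPM with panobinostat (log2 fold change -2.27 ± 0.23, edgeR adjusted p = 5.32e-06). GIPC3, an adaptor protein, had 25.1, 20.1 and 17.5 CPM with vehicle and 3.69, 4.84 and 5.096 CPM with panobinostat (log2 fold change -2.24 ± 0.22, edgeR adjusted p = 3.86e-06). AVEN, an inhibitor of caspase activation, had 18.6, 16.7 and 15.1 CPM with vehicle and 3.53, 4.21 and 4.704 CPM with panobinostat (log2 fold change -2.05 ± 0.23, edgeR adjusted p = 1.2e-05). In each of them the lowest vehicle library was more than 2-fold above the highest panobinostat library. Signalling proteins of lymphoid cells were among the 12: IL27RA, a cytokine receptor chain, had 80.9, 67.9 and 94.2 CPM with vehicle and 17.8, 29.5 and 25.3 CPM with panobinostat (log2 fold change -1.78 ± 0.18, edgeR adjusted p = 5.32e-06), and DOK3, an adaptor that restrains B cell receptor signals, had 25.5, 23.8 and 29.6 CPM with vehicle and 7.38, 10.1 and 6.66 CPM with panobinostat (log2 fold change -1.74 ± 0.20, edgeR adjusted p = 1.75e-05). SCARB1, the receptor for high density lipoprotein, had 32.7, 30.1 and 40.1 CPM with vehicle and 9.95, 11.2 and 10.8 CPM with panobinostat (log2 fold change -1.72 ± 0.20). STAP2 and AGMAT fell from 18.8 to 19.1 and 13.3 to 14.7 CPM with vehicle to 2.73 to 7.16 and 1.93 to 4.84 CPM with panobinostat. HMGN2, a nucleosome-binding protein with many pseudogene copies, had 16.4, 11.1 and 16.2 CPM with vehicle and 4.17, 4.84 and 3.92 CPM with panobinostat, and HBBP1, a pseudogene next to the globin genes, had 27.7, 13.02 and 28.3 CPM with vehicle and 5.78, 3.58 and 9.41 CPM with panobinostat. Their counts may be shared with related copies and are uncertain.

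SLC7A5 and SLC38A5, both amino acid carriers, completed the 12 largest falls. SLC7A5, the light chain of the main leucine carrier, had 46.3, 136 and 68.2 CPM with vehicle and 18.8, 23.2 and 22.9 CPM with panobinostat (log2 fold change -1.98 ± 0.46, edgeR adjusted p = 0.0107). Vehicle replicate 2 was far above the other vehicle libraries in SLC7A5, and all were above the panobinostat libraries. SLC38A5, a carrier of glutamine and serine, had 60.6, 40.5 and 48.3 CPM with vehicle and 13.3, 16.2 and 14.9 CPM with panobinostat (log2 fold change -1.79 ± 0.19, edgeR adjusted p = 7.42e-06). SLC7A5 is also a target of ATF4, the transcription factor of the integrated stress response, which raises amino acid synthesis and uptake. Of 38 genes of this response tested, 21 fell and 0 rose, where 10.9% of all genes fell, with a median log2 fold change of -0.50. PYCR1, which makes proline, had 314, 369 and 346 CPM with vehicle and 147, 200.1 and 158 CPM with panobinostat (log2 fold change -1.06 ± 0.14, edgeR adjusted p = 5.47e-05). PSAT1, an enzyme of serine synthesis, had 37.6, 58.6 and 43.7 CPM with vehicle and 23.9, 28.6 and 27.4 CPM with panobinostat (log2 fold change -0.84 ± 0.18, edgeR adjusted p = 0.00308). MTHFD2, of mitochondrial folate metabolism, had 268, 309.9 and 259 CPM with vehicle and 196, 213 and 191 CPM with panobinostat (log2 fold change -0.51 ± 0.11, edgeR adjusted p = 0.0027). In these 3 enzymes the groups did not overlap. TARS1, a threonyl-tRNA synthetase, was the most abundant member without a call (adjusted p = 0.082), and with the replicate block its edgeR adjusted p was 0.0215. The count of falls rested partly on single libraries: it was 10 without panobinostat replicate 1, 12 without panobinostat replicate 3 and 12 without vehicle replicate 2.

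Genes that build ribosomes fell together, without the ribosomal proteins themselves. Of 52 ribosome biogenesis genes tested 33 fell (63.5%, against 10.9% of all genes) and 0 rose, and the median log2 fold change was -0.62. NCL, nucleolin, an abundant protein of the nucleolus, had 633, 701 and 698 CPM with vehicle and 297, 345 and 324 CPM with panobinostat (log2 fold change -1.10 ± 0.10, edgeR adjusted p = 3.52e-06). MRTO4, an assembly factor of the large subunit, had 66.96, 82.01 and 73.9 CPM with vehicle and 33.1, 41.9 and 46.3 CPM with panobinostat (log2 fold change -0.91 ± 0.15, edgeR adjusted p = 0.00029). DDX56, a nucleolar helicase, had 21.4, 21.8 and 23.03 CPM with vehicle and 10.3, 11.4 and 12.2 CPM with panobinostat (log2 fold change -1.004 ± 0.16, edgeR adjusted p = 0.000308). The panobinostat libraries of these 3 genes, replicate 2 included, were all below the vehicle libraries. RRS1, another assembly factor, had 172, 263 and 284 CPM with vehicle and 160, 178 and 227 CPM with panobinostat and was not called (edgeR adjusted p = 0.133, or 0.0018 with the block). Without panobinostat replicate 1 the count of falls was 20. Among 77 cytosolic ribosomal protein genes 0 rose and 1 fell, where 15.0% and 10.9% of all genes did, with a median of -0.00608. With the block 3 rose and 4 fell, where 22.4% and 19.5% of all genes did. The 1 fall without the block was RPS9, at a level of 4.84, 1.41 and 6.28 CPM with vehicle and 1.12, 0.842 and 0.784 CPM with panobinostat. Its call was lost when any library but vehicle replicate 2 was left out (edgeR adjusted p = 0.0592 to 0.118). Of the machinery of RNA polymerase I, 18 genes were tested, 3 fell and 1 rose (16.7% and 5.56%, against 10.9% and 15.0% of all genes). With the block 7 fell and 1 rose, where 19.5% and 22.4% of all genes did. The rise called without the block, of POLR2L, was lost without panobinostat replicate 1 or 3 or vehicle replicate 1 or 2 (edgeR adjusted p = 0.0837 to 0.253). UBTF, the factor that bends ribosomal DNA at its promoter, had 123, 104 and 161 CPM with vehicle and 61.5, 66.5 and 73.5 CPM with panobinostat (log2 fold change -0.98 ± 0.15, edgeR adjusted p = 0.000155), and POLR1C, a subunit shared with RNA polymerase III, had 45.8, 75.8 and 60.9 CPM with vehicle and 28.6, 38.5 and 31.4 CPM with panobinostat (log2 fold change -0.92 ± 0.18, edgeR adjusted p = 0.00154).

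MYC, which drives ribosome biogenesis and nucleotide synthesis, had 90.6, 187 and 105 CPM with vehicle and 70.3, 87.1 and 66.8 CPM with panobinostat (log2 fold change -0.80 ± 0.25, edgeR adjusted p = 0.0276). The call for MYC was lost without panobinostat replicate 1, panobinostat replicate 3 or vehicle replicate 2, with edgeR adjusted p = 0.0819, 0.0979 and 0.101. Of 37 MYC targets tested 21 fell and 1 rose (56.8% and 2.7%, against 10.9% and 15.0% of all genes). The median log2 fold change of the targets was -0.67, and several of them are also in the ribosome biogenesis list. CAD, the enzyme that starts pyrimidine synthesis, had 28.8, 38.4 and 41.1 CPM with vehicle and 10.8, 9.89 and 13.7 CPM with panobinostat (log2 fold change -1.69 ± 0.20, edgeR adjusted p = 1.55e-05). RCC1, the exchange factor of the GTPase Ran, had 156, 178 and 153 CPM with vehicle and 72.9, 85.02 and 70.8 CPM with panobinostat (log2 fold change -1.12 ± 0.12, edgeR adjusted p = 7.42e-06). Both genes kept their calls whichever library was left out, and their groups did not overlap. ENO1, a glycolytic enzyme, had 2947, 2337 and 3071 CPM with vehicle and 2964, 2162 and 2925 CPM with panobinostat and was not called (edgeR adjusted p = 0.736). PKM, pyruvate kinase, was the 1 target that rose, with 485, 491 and 604 CPM with vehicle and 974, 656 and 792 CPM with panobinostat (log2 fold change 0.59 ± 0.16, edgeR adjusted p = 0.0102), and without panobinostat replicate 1 its adjusted p was 0.0878. MYC binds the E-box CACGTG, a palindrome that reads the same on both strands. The promoter of MRTO4 (chr1:19251555-19251854, plus strand, GRCh38.p14, RefSeq) is shown as 1 with an E-box, in capitals, among the ribosome biogenesis genes that fell.
MRTO4: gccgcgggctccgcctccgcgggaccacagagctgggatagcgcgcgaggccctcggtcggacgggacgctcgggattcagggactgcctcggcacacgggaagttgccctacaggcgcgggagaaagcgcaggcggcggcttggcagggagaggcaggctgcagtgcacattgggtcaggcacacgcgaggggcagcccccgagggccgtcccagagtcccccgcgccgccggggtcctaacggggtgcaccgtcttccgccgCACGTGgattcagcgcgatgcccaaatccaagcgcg
The E-box was found in 10 of 29 ribosome biogenesis genes that fell and have a promoter in the table (34.5%), and in 9 of 15 that were not called (60.0%). It was present in 7.43% of all promoters of this length, in 10.4% of those of the genes tested, in 14.2% of those of all genes that fell and in 8.83% of those of all genes that rose.

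The targets of the drug changed unevenly. Of the 11 zinc-dependent HDAC genes, all tested, 3 rose and 1 fell (27.3% and 9.09%, against 15.0% and 10.9% of all genes). HDAC9, a class IIa enzyme, had 23.2, 30.3 and 28.4 CPM with vehicle and 70.8, 57.4 and 77.2 CPM with panobinostat (log2 fold change 1.30 ± 0.17, edgeR adjusted p = 6.3e-05). HDAC11 had 1.86, 1.41 and 1.35 CPM with vehicle and 8.18, 3.16 and 7.84 CPM with panobinostat (log2 fold change 2.04 ± 0.36, edgeR adjusted p = 0.000631). HDAC7, another class IIa enzyme and a repressor in lymphocytes, had 454, 446 and 568 CPM with vehicle and 218, 254 and 297 CPM with panobinostat (log2 fold change -0.97 ± 0.15, edgeR adjusted p = 0.000185). The groups of HDAC9, HDAC11 and HDAC7 did not overlap. HDAC5 rose by 0.58 ± 0.16 on the log2 scale (edgeR adjusted p = 0.0139), a call lost without panobinostat replicate 1 (0.066), panobinostat replicate 2 (0.0548) or vehicle replicate 1 (0.0718). The class I enzymes HDAC1, HDAC2 and HDAC3 were not called, with log2 fold changes of -0.01 ± 0.13, -0.14 ± 0.15 and 0.27 ± 0.15, and with the replicate block HDAC3 had an edgeR adjusted p of 0.0144. Of 27 genes of HDAC corepressor complexes 2 rose and 3 fell (7.41% and 11.1%), no more often than all genes, with the block 2 and 5. There was 1 rise without panobinostat replicate 1, 1 fall without panobinostat replicate 3 and 5 falls without vehicle replicate 1. CHD3, a remodelling ATPase of the NuRD complex, had 94.9, 75.2 and 93.8 CPM with vehicle and 41.2, 38.9 and 44.9 CPM with panobinostat (log2 fold change -1.11 ± 0.14, edgeR adjusted p = 3.85e-05), while its relative CHD4 had 319.6, 386 and 336 CPM with vehicle and 324, 440.2 and 310.1 CPM with panobinostat (edgeR adjusted p = 0.958). Among 9 histone acetyltransferase genes 2 fell (22.2%, against 10.9% of all genes) and 0 rose. With the block 4 fell, where 19.5% of all genes did. KAT2A, the catalytic subunit of the SAGA complex, had 47.8, 71.3 and 64.8 CPM with vehicle and 20.1, 38.1 and 35.3 CPM with panobinostat (log2 fold change -1.02 ± 0.24, edgeR adjusted p = 0.0051).

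Of 14 listed histone genes tested 5 rose and 1 fell (35.7% and 7.14%, against 15.0% and 10.9% of all genes). With the block 6 rose and 2 fell, where 22.4% and 19.5% of all genes did. The fall called without the block, of H2AZ1, was lost without panobinostat replicate 1 or 2 or vehicle replicate 1 or 3 (edgeR adjusted p = 0.0664 to 0.11). H3-3B, which codes for a replacement histone, had 436, 564 and 540.3 CPM with vehicle and 827, 772 and 797 CPM with panobinostat (log2 fold change 0.61 ± 0.12, edgeR adjusted p = 0.00125), and H1-10 had 445, 328 and 448 CPM with vehicle and 791, 746 and 568 CPM with panobinostat (log2 fold change 0.76 ± 0.16, edgeR adjusted p = 0.00228). HEXIM1, the inhibitor of the elongation factor P-TEFb, had 81.8, 141 and 121 CPM with vehicle and 107, 148 and 143 CPM with panobinostat with overlapping groups, and was not called (edgeR adjusted p = 0.442).

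The regulators of the plasma cell state moved in both directions. Of 17 plasma cell and B cell transcription factors 7 rose and 4 fell (41.2% and 23.5%, against 15.0% and 10.9% of all genes). XBP1, which runs the secretory expansion of plasma cells, had 828, 823 and 814 CPM with vehicle and 453, 536 and 491 CPM with panobinostat (log2 fold change -0.77 ± 0.10, edgeR adjusted p = 5.99e-05). IRF4, on which myeloma cells depend, had 177, 177 and 255 CPM with vehicle and 113, 99.8 and 119 CPM with panobinostat (log2 fold change -0.90 ± 0.16, edgeR adjusted p = 0.000506). TCF3, a helix-loop-helix factor of the B lineage, had 413, 384 and 426 CPM with vehicle and 277, 281 and 295 CPM with panobinostat (log2 fold change -0.55 ± 0.11, edgeR adjusted p = 0.00137). XBP1, IRF4 and TCF3 were lower in every panobinostat library. SPIB, an ETS factor of B cells, fell the most, with 9.49, 4.75 and 7.63 CPM with vehicle and 2.25, 2.53 and 2.74 CPM with panobinostat (log2 fold change -1.57 ± 0.33, edgeR adjusted p = 0.00245), and was named after its values were seen. Its groups did not overlap either. Other factors of the B lineage rose. BCL6, the repressor that marks germinal centre B cells, had 3.16, 3.52 and 1.94 CPM with vehicle and 17.6, 12.2 and 13.1 CPM with panobinostat (log2 fold change 2.31 ± 0.30, edgeR adjusted p = 4.79e-05). MEF2C had 61.9, 61.2 and 59.2 CPM with vehicle and 113, 100.4 and 138 CPM with panobinostat (log2 fold change 0.91 ± 0.14, edgeR adjusted p = 0.00016), and TCF4 rose by 0.67 ± 0.12 (edgeR adjusted p = 0.000497). PRDM1, the repressor that sets the plasma cell state against BCL6, had 43.7, 42.6 and 49.9 CPM with vehicle and 66.3, 53.7 and 62.9 CPM with panobinostat, with groups that did not overlap but no call (edgeR adjusted p = 0.0569, or 0.00713 with the block). The 7 rises became 3 without panobinostat replicate 1, 4 without panobinostat replicate 3 and 3 without vehicle replicate 2. Summed B cell markers were 0.449 to 1.30 CPM with vehicle and 1.47 to 5.68 CPM with panobinostat, with CR2 and FCER2 at 0, and their part in these results was not tested. MAF had 402, 623 and 362 CPM with vehicle and 407, 552 and 393 CPM with panobinostat and was not called (edgeR adjusted p = 0.87), while CCND2, a cyclin gene that MAF activates, had 589, 742 and 800.5 CPM with vehicle and 286, 546 and 444 CPM with panobinostat (log2 fold change -0.77 ± 0.19, edgeR adjusted p = 0.00853).

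Among surface proteins some defining antigens of plasma cells fell, and part of the MHC class II genes rose. Of 20 surface antigens 4 fell and 1 rose, where 10.9% and 15.0% of all genes did, and with the block 6 fell and 5 rose, where 19.5% and 22.4% did. Without panobinostat replicate 2 there were 3 rises. SDC1, the syndecan CD138 that defines plasma cells, had 94.3, 98.02 and 114 CPM with vehicle and 56.98, 65.4 and 59 CPM with panobinostat (log2 fold change -0.79 ± 0.13, edgeR adjusted p = 0.000414). TNFRSF17, which codes for the myeloma antigen BCMA, had 106, 65.1 and 98.4 CPM with vehicle and 57.5, 51.6 and 59.6 CPM with panobinostat (log2 fold change -0.71 ± 0.18, edgeR adjusted p = 0.00804), and TNFRSF13B, its relative TACI, had 37.9, 30.8 and 39.3 CPM with vehicle and 18.9, 20.4 and 25.3 CPM with panobinostat (log2 fold change -0.78 ± 0.18, edgeR adjusted p = 0.00443). In SDC1, TNFRSF17 and TNFRSF13B all panobinostat libraries were below all vehicle libraries. The antigen that rose was CD40, described above with 0 counts under vehicle. It could enter the test only through treated libraries, so nothing is read from this rise as a count. Of 10 MHC class II genes tested 5 rose (50.0%, against 15.0% of all genes) and 0 fell. The median log2 fold change of the 10 was 0.56. HLA-DQA1 had 209.6, 222 and 185 CPM with vehicle and 432, 400.1 and 367 CPM with panobinostat (log2 fold change 0.93 ± 0.13, edgeR adjusted p = 9.89e-05), and HLA-DRB1 had 1069, 1006 and 1098 CPM with vehicle and 1842, 1446 and 1779 CPM with panobinostat (log2 fold change 0.65 ± 0.12, edgeR adjusted p = 0.00113). These chains come from near-identical and polymorphic genes, so their split is uncertain, and HLA-DRA, the partner chain of HLA-DRB1, was listed at 11 and 14 counts over the vehicle and panobinostat libraries. CIITA, the coactivator of these genes, had 5.58, 5.28 and 8.97 CPM with vehicle and 12.2, 6.31 and 16.5 CPM with panobinostat (edgeR adjusted p = 0.104, or 0.00276 with the block). Among 11 class I genes 2 fell (18.2%, against 10.9% of all genes) and 0 rose. With the block 5 fell, where 19.5% of all genes did. PSMB10, a catalytic subunit of the immunoproteasome, had 327, 282 and 337 CPM with vehicle and 96.3, 139.5 and 97.4 CPM with panobinostat (log2 fold change -1.54 ± 0.16, edgeR adjusted p = 5.4e-06). B2M, the light chain of class I molecules, spread widely within the vehicle group, with 239.6, 1345 and 2621 CPM with vehicle and 3700, 2424 and 2795 CPM with panobinostat, and was not called (edgeR adjusted p = 0.508).

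Some chaperones of the endoplasmic reticulum fell. Of 51 genes of protein folding and secretion tested 8 fell and 3 rose (15.7% and 5.88%, against 10.9% and 15.0% of all genes). With the block 21 of the 51 fell and 6 rose, where 19.5% and 22.4% of all genes did. In that fit falls were more frequent in the list than among all genes, and rises less frequent. HYOU1, a chaperone of the lumen, had 319.7, 310.1 and 328 CPM with vehicle and 199.5, 187 and 169 CPM with panobinostat (log2 fold change -0.82 ± 0.11, edgeR adjusted p = 8.06e-05), and MZB1, a plasma cell cochaperone for immunoglobulin, had 236, 247 and 237 CPM with vehicle and 124, 171 and 117 CPM with panobinostat (log2 fold change -0.83 ± 0.15, edgeR adjusted p = 0.000527). Both were lower in every panobinostat library. HSPA5, the main chaperone BiP, had 1217, 1446 and 1368 CPM with vehicle and 625, 1081 and 579 CPM with panobinostat (log2 fold change -0.85 ± 0.24, edgeR adjusted p = 0.0207), with replicate 2 the least changed, and its adjusted p was 0.0831, 0.0829 and 0.0648 without panobinostat replicate 1, panobinostat replicate 3 and vehicle replicate 2. The 8 falls became 5 without panobinostat replicate 1 and 4 without panobinostat replicate 3. HSP90B1, the most abundant member without a call, had 2430, 3734 and 2385 CPM with vehicle and 2387, 3672 and 2069 CPM with panobinostat (edgeR adjusted p = 0.827). SEC11C, a signal peptidase subunit, went the other way with 337, 300.4 and 291 CPM with vehicle and 537, 447 and 568 CPM with panobinostat (log2 fold change 0.71 ± 0.13, edgeR adjusted p = 0.000974). Of 31 proteasome genes 6 fell (19.4%, against 10.9% of all genes) and 0 rose, while 3 fell without panobinostat replicate 3. With the block 14 fell and 2 rose, where 19.5% and 22.4% of all genes did. PSMB5, the subunit that bortezomib binds, had 124, 127 and 142 CPM with vehicle and 71.1, 86.5 and 80.6 CPM with panobinostat (log2 fold change -0.76 ± 0.12, edgeR adjusted p = 0.000172). Of 26 heat shock chaperone genes 4 rose and 8 fell (15.4% and 30.8%, against 15.0% and 10.9% of all genes). There were 2 rises without panobinostat replicate 1 and 4 falls without panobinostat replicate 3. The chaperonin pair HSPE1 and HSPD1 changed by -0.84 ± 0.14 and -0.67 ± 0.14 on the log2 scale, at edgeR adjusted p values of 0.000335 and 0.00239, while HSPB1 had 32.7, 28.7 and 39.03 CPM with vehicle and 98.1, 67.97 and 75.7 CPM with panobinostat (log2 fold change 1.24 ± 0.16, edgeR adjusted p = 4.56e-05) and HSPA2 rose by 2.29 ± 0.29 (edgeR adjusted p = 3.12e-05).

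Inhibitors of cyclin-dependent kinases rose, and genes of DNA replication fell. Of 10 CDK inhibitor and pocket protein genes 5 rose and 1 fell (50.0% and 10.0%, against 15.0% and 10.9% of all genes). CDKN1A, which codes for p21, had 20.6, 28.5 and 26.2 CPM with vehicle and 54.9, 70.9 and 55.1 CPM with panobinostat (log2 fold change 1.23 ± 0.19, edgeR adjusted p = 0.000215). CDKN2B, which codes for p15, had 7.998, 5.46 and 5.23 CPM with vehicle and 17.5, 14.5 and 15.7 CPM with panobinostat (log2 fold change 1.33 ± 0.22, edgeR adjusted p = 0.000329), and CDKN2C, which codes for p18, had 113, 84.1 and 111 CPM with vehicle and 183, 150.5 and 174 CPM with panobinostat (log2 fold change 0.69 ± 0.16, edgeR adjusted p = 0.004). The groups of CDKN1A, CDKN2B and CDKN2C did not overlap, and in CDKN1A replicate 2 was the highest of both groups. CDKN2A, which codes for p16, fell by -0.64 ± 0.14 as a signed log2 fold change (edgeR adjusted p = 0.00323). Of 54 G1/S and DNA replication genes 16 fell (29.6%, against 10.9% of all genes) and 0 rose, with a median of -0.43. With the block 35 fell and 3 rose, where 19.5% and 22.4% of all genes did. The 16 falls became 10 without vehicle replicate 1, 35 without vehicle replicate 2 and 9 without vehicle replicate 3. UHRF1, which keeps DNA methylation through replication, had 8.74, 7.04 and 8.67 CPM with vehicle and 2.57, 2.74 and 3.14 CPM with panobinostat (log2 fold change -1.56 ± 0.29, edgeR adjusted p = 0.000897), and UNG, which removes uracil from DNA, had 15.8, 28.7 and 14.95 CPM with vehicle and 5.46, 9.89 and 8.04 CPM with panobinostat (log2 fold change -1.39 ± 0.27, edgeR adjusted p = 0.00113). POLD3, a subunit of a replicative polymerase, had 50.8, 38.01 and 50.8 CPM with vehicle and 28.7, 29.04 and 27.4 CPM with panobinostat (log2 fold change -0.74 ± 0.14, edgeR adjusted p = 0.00124). Of 48 mitotic genes 4 rose and 7 fell (8.33% and 14.6%, against 15.0% and 10.9% of all genes). With the block 8 rose and 11 fell, where 22.4% and 19.5% of all genes did, so the list stood close to the background. There were 3 falls without panobinostat replicate 1, 4 falls without vehicle replicate 3 and 2 rises without vehicle replicate 1. HMMR, a spindle protein, had 43.5, 34.3 and 46.1 CPM with vehicle and 89.4, 74.9 and 77.4 CPM with panobinostat (log2 fold change 0.94 ± 0.17, edgeR adjusted p = 0.000656), and UBE2C, a ubiquitin conjugase of the anaphase-promoting complex, had 218, 267 and 255 CPM with vehicle and 145, 178 and 141 CPM with panobinostat (log2 fold change -0.70 ± 0.13, edgeR adjusted p = 0.000808). MKI67 had 216, 259.8 and 322 CPM with vehicle and 185, 232 and 235 CPM with panobinostat and was not called (edgeR adjusted p = 0.184, or 0.00693 with the block).

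Apoptosis genes changed on both sides. Of 10 pro-apoptotic BCL2 family genes 4 rose and 1 fell, where 15.0% and 10.9% of all genes did. With the block 4 rose and 3 fell, where 22.4% and 19.5% did, and 2 rose without panobinostat replicate 1 or without vehicle replicate 3. HRK, 1 of the 4, had 1 count over the vehicle libraries and could enter the test only through treated libraries. Nothing is therefore read from the 4 rises as a count. BMF, a BH3-only protein, had 32.4, 30.3 and 29.6 CPM with vehicle and 71.1, 63.8 and 66.8 CPM with panobinostat (log2 fold change 1.10 ± 0.14, edgeR adjusted p = 4.32e-05). HRK, a BH3-only protein known from neurons, had 1 count over the vehicle and 41 over the panobinostat libraries, a ratio of 45.2 with a 95% exact counting interval of 7.68 to 1830.0 (edgeR adjusted p = 0.000261). BID, which links death receptors to mitochondria, had 47.6, 45.6 and 47.8 CPM with vehicle and 23.9, 25.7 and 19.99 CPM with panobinostat (log2 fold change -1.05 ± 0.15, edgeR adjusted p = 8.11e-05). Both BMF and BID had groups that did not overlap. BCL2L11, which codes for BIM, had 41.3, 50.3 and 36.6 CPM with vehicle and 58.1, 57.4 and 64.3 CPM with panobinostat (log2 fold change 0.46 ± 0.16, edgeR adjusted p = 0.0396), a call lost in 5 of the 6 fits that each left out 1 library (0.0606 to 0.173). On the protective side, of 10 genes tested 2 rose and 0 fell, near the 15.0% of all genes that rose, with the block 4 rose (22.4% of all genes), and without panobinostat replicate 1 the count was 1. BCL2 had 153, 155 and 150.1 CPM with vehicle and 230.1, 193 and 245 CPM with panobinostat (log2 fold change 0.51 ± 0.12, edgeR adjusted p = 0.00566), and MCL1, the survival protein of myeloma, had 680, 920.2 and 749 CPM with vehicle and 893, 1052 and 910.5 CPM with panobinostat (edgeR adjusted p = 0.154, or 0.00679 with the block). FAS, a death receptor, had 23.6, 27.98 and 19.7 CPM with vehicle and 7.38, 9.05 and 11.4 CPM with panobinostat (log2 fold change -1.40 ± 0.22, edgeR adjusted p = 0.000225). NFKB1, a subunit of NF-kB, had 52.4, 47.2 and 47.2 CPM with vehicle and 19.3, 26.7 and 20.8 CPM with panobinostat (log2 fold change -1.17 ± 0.16, edgeR adjusted p = 7.85e-05). Of 27 genes known as p53 targets, CDKN1A and FAS included, 6 rose and 2 fell (22.2% and 7.41%, against 15.0% and 10.9% of all genes). With the block 9 rose and 6 fell, where 22.4% and 19.5% of all genes did.

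Several signal-induced, lysosomal and interferon genes rose. Of 26 immediate early genes 8 rose (30.8%, against 15.0% of all genes) and 0 fell, with a median of 0.51. NR4A1, 1 of the 8, had 1 count over the vehicle and 22 over the panobinostat libraries. It could enter the test only through treated libraries, so the count of rises is not read as a direction. With the block 15 rose and 1 fell, while 4 rose without panobinostat replicate 1 and 5 without panobinostat replicate 3 or without vehicle replicate 3. IER2, a nuclear early response protein, had 269.5, 290.2 and 349 CPM with vehicle and 502, 401 and 565 CPM with panobinostat (log2 fold change 0.66 ± 0.13, edgeR adjusted p = 0.00136), and DUSP6, the phosphatase of ERK, had 77.4, 54.9 and 80.9 CPM with vehicle and 134, 98.5 and 159.6 CPM with panobinostat (log2 fold change 0.85 ± 0.19, edgeR adjusted p = 0.00357). JUN had 118, 199 and 124 CPM with vehicle and 224, 369 and 183 CPM with panobinostat, with replicate 2 the highest of both groups, and an edgeR adjusted p of 0.109, or 3.32e-08 with the block. Of 34 lysosome and autophagy genes 11 rose (32.4%, against 15.0% of all genes) and 0 fell, with a median of 0.38. With the block 21 rose and 3 fell, where 22.4% and 19.5% of all genes did. Without panobinostat replicate 1 the rises were 7, and without vehicle replicate 3 they were 6. ATP6V0D1, a subunit of the proton pump, had 19.5, 17.95 and 21.2 CPM with vehicle and 52.6, 36.6 and 39.6 CPM with panobinostat (log2 fold change 1.11 ± 0.18, edgeR adjusted p = 0.000253). OPTN, an autophagy receptor, had 70.9, 71.98 and 74.2 CPM with vehicle and 126, 114 and 129 CPM with panobinostat (log2 fold change 0.74 ± 0.12, edgeR adjusted p = 0.000291), and GABARAPL2, a protein of the autophagosome membrane, had 360.3, 388 and 339 CPM with vehicle and 556, 580.2 and 564 CPM with panobinostat (log2 fold change 0.61 ± 0.11, edgeR adjusted p = 0.00069). The groups of IER2, DUSP6, ATP6V0D1, OPTN and GABARAPL2 did not overlap. Of 25 interferon-stimulated genes 7 rose (28.0%) and 1 fell (4.0%), with the block 11 and 1, and without vehicle replicate 2 the rises were 4. OASL, 1 of the 7, had 1 count over the vehicle and 14 over the panobinostat libraries, with the same limit as NR4A1. The fall, of IFIH1, was lost whenever a library other than panobinostat replicate 2 was left out (edgeR adjusted p = 0.0794 to 0.164). IFI6, a mitochondrial interferon-induced protein, had 7.81, 13.2 and 11.8 CPM with vehicle and 37.9, 19.6 and 38.03 CPM with panobinostat (log2 fold change 1.51 ± 0.30, edgeR adjusted p = 0.00194).

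**Figure D3:**
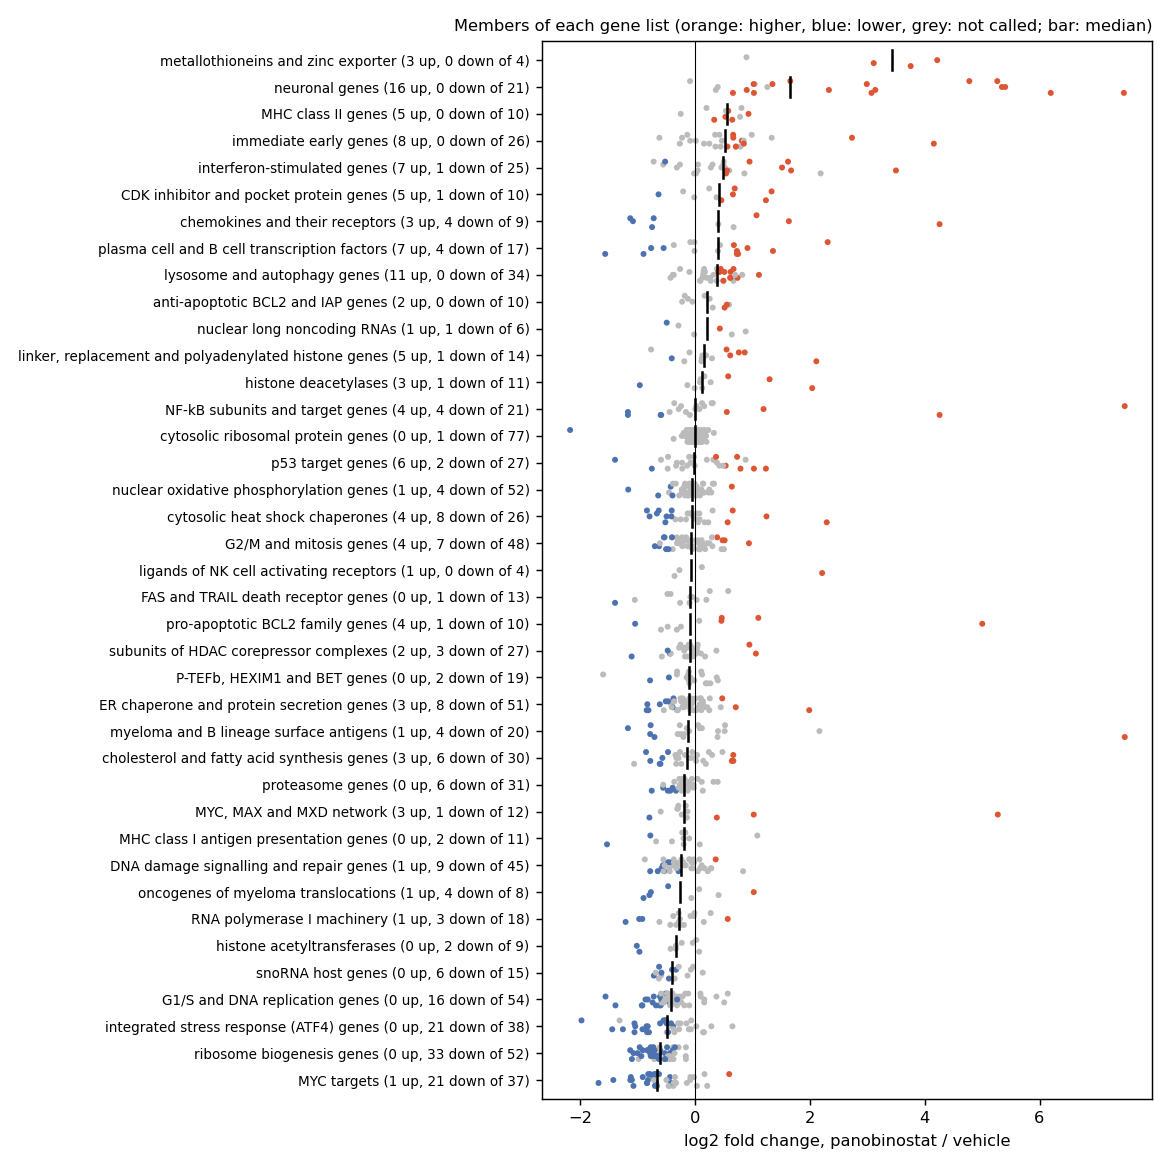
Log2 fold change of panobinostat over vehicle in JJN3 (horizontal axis) for the tested members of each gene list (rows), 1 point per gene, orange where the gene rose, blue where it fell and grey where it was not called, with a bar at the median of the list. The neuronal list has points up to 7.47, and the ribosome biogenesis and MYC target lists have theirs at -0.62 and -0.67.

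The size of the change differed between replicate pairs. The log2 ratio of CPM + 0.5 within a pair of the same number was smallest in pair 2 for 9 of the 11 largest rises named and in pair 3 for the other 2. Among the 12 largest falls it was smallest in pair 2 for 8 genes, in pair 3 for 3 and in pair 1 for 1. HPCAL4 had pair ratios of 5.27, 3.14 and 5.15 and TUBB3 had 5.40, 2.94 and 4.18. In SLC7A5 pair 2 changed the most, with -1.28, -2.53 and -1.55. Genes called without a pair mostly moved the same way in the pair that was left out. Of 1653 genes called higher without replicate 2, 94.7% were higher in pair 2, with a median log2 ratio of 0.82 in that pair and 1.23 in each of the others, which chose the genes. Of 1297 called lower, 93.1% were lower in pair 2, with medians of -0.43 in that pair and -0.66 and -0.64 in pairs 1 and 3. For pair 1 the shares were 99.7% of 637 and 99.7% of 386 genes, and for pair 3 they were 99.4% of 694 and 98.7% of 477.

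**Figure D4:**
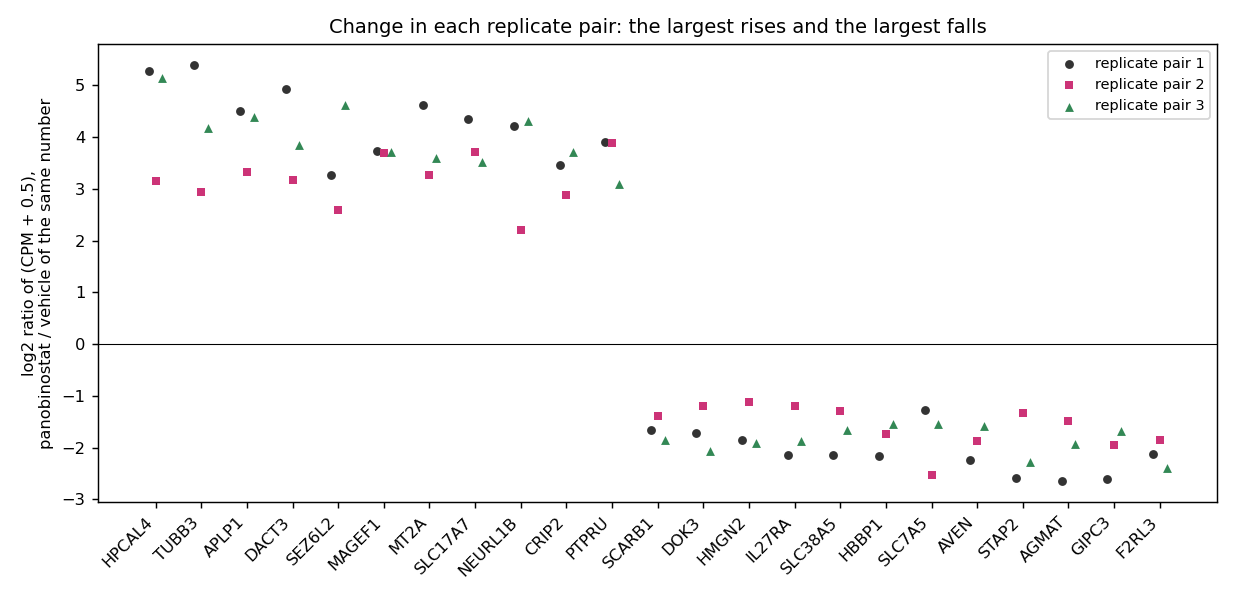
Log2 ratio of (CPM + 0.5), panobinostat over vehicle of the same replicate number (vertical axis), for the 11 largest rises named and the 12 largest falls (horizontal axis), with a symbol and colour for each of the 3 replicate pairs. All points of the rises lie above 0 and all points of the falls below 0, and pair 2 is nearest to 0 in 17 of the 23 genes.

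The same drug was also given on top of CX-5461, in 6 libraries separate from the vehicle and panobinostat libraries, and most genes called with panobinostat alone moved the same way there. With both contrasts fitted on their own 6 libraries, 1334 of 10781 genes were higher with panobinostat alone (12.4%), of which 1310 were also tested in the other fit. Of these 1293 had the same sign and 1084 were called in the same direction, that is 81.3% of the 1334 and 53.6% of the 2023 called higher on top of CX-5461. Of 975 genes lower alone (9.04%), 967 had the same sign and 791 were called, or 81.1% of the 975 and 47.0% of the 1683. The median log2 fold change of the genes that rose was 1.09 in both settings, and of those that fell -0.70 alone and -0.76 on top of CX-5461. Across 10633 genes, which are not independent and share library depth within each contrast, the log2 fold changes had a Pearson correlation of 0.892 and a Spearman correlation of 0.83. HPCAL4 had 0.339, 0.377 and 0.333 CPM with CX-5461 and 37.4, 19.8 and 34.4 CPM with both drugs (log2 fold change 6.32 ± 0.55, edgeR adjusted p = 8.45e-07). The levels of MT2A were 1.53, 1.32 and 1.66 CPM with CX-5461 and 63.3, 36.9 and 46.6 CPM with both (log2 fold change 4.95 ± 0.36, edgeR adjusted p = 1.35e-07). Those of NCL were 486, 511 and 551 CPM with CX-5461 and 224, 249 and 247 CPM with both (log2 fold change -1.16 ± 0.10, edgeR adjusted p = 6.41e-07). In all 3 genes the groups with and without panobinostat did not overlap in either setting. These 3 genes and the lists that follow come from the fit of 12 libraries, in which both contrasts share 1 estimate of the spread, and in which 18.8% of all genes rose and 15.6% fell on top of CX-5461. There 30 of the 52 ribosome biogenesis genes fell and 0 rose, 23 of the 37 MYC targets fell and 2 rose, and 15 of the 38 stress response genes fell and 1 rose. Of the 10 MHC class II genes 1 rose and 0 fell on top of CX-5461, with a median log2 fold change of 0.22 against 0.56 with panobinostat alone. Of the 20 surface antigens 8 fell and 2 rose, and of the 48 mitotic genes 17 fell and 4 rose. Differences between the contrasts were not tested.

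In MM1.S the drug changed more genes, and several genes of the plasma cell state fell further there than in JJN3. In 1 fit of 24 libraries, 4386 of 12872 genes were higher and 3820 lower with panobinostat in MM1.S (34.1% and 29.7%). In that fit 2284 genes were higher in JJN3, of which 68.7% were also higher in MM1.S and 7.53% lower. Of 1496 genes lower in JJN3, 80.8% were also lower in MM1.S and 3.81% higher. The effects of the cell lines differed for 4284 genes (33.3%), with 56.8% of these above 0 when the MM1.S effect is subtracted from the JJN3 effect. With library size alone as scaling 46.8% were above 0 and the median difference of all genes moved from 0.03 to -0.10, so single differences are best read against that shift. Of 22 genes chosen for this contrast and tested, 17 differed. TNFRSF17 had log2 fold changes of -0.70 in JJN3 and -6.91 in MM1.S, a difference of 6.21 ± 0.28 (edgeR adjusted p = 5.87e-16). XBP1 had -0.76 and -3.88, a difference of 3.13 ± 0.15 (edgeR adjusted p = 5.87e-16), and MYC had -0.78 and -3.56, a difference of 2.78 ± 0.40 (edgeR adjusted p = 8.9e-06). BCL2 rose in JJN3 and fell in MM1.S, with 0.53 and -1.26 and a difference of 1.78 ± 0.21 (edgeR adjusted p = 6.58e-08). SYT11 rose further in MM1.S, with a difference of -3.19 ± 0.37 (edgeR adjusted p = 4.71e-08). CDKN1A changed by 1.25 ± 0.17 in JJN3 and 1.25 ± 0.16 in MM1.S on the log2 scale (edgeR adjusted p of the difference = 1), and IRF4 by -0.89 and -0.84, with a difference of -0.05 ± 0.19 (edgeR adjusted p = 0.887). With 1 line of each labelled p53 status, the p53 label and every other property of the lines cannot be told apart.

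**Figure D5:**
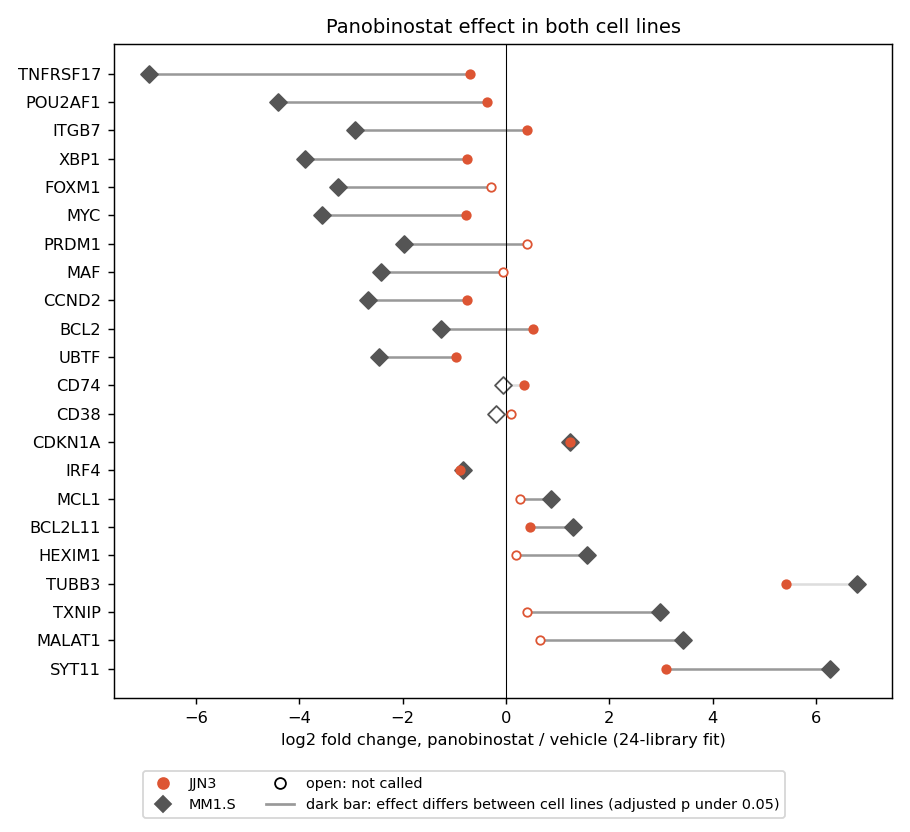
Log2 fold change of panobinostat over vehicle (horizontal axis) in JJN3 (orange circles) and MM1.S (grey diamonds) for 22 genes (rows), from 1 fit of 24 libraries, with open symbols where the gene was not called and a dark bar where the effect differed between the lines. TNFRSF17, POU2AF1 and XBP1 lie near 0 to -1 in JJN3 and below -3 in MM1.S, while the points of CDKN1A and IRF4 nearly coincide.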

How the data were processed

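The 6 JJN3 libraries were read from a table of raw counts per gene that the authors deposited, whole numbers with no normalisation, and all 24 libraries of both lines were used only for the contrast with MM1.S. HISAT2 2.2.1, featureCounts 2.0.1, limma 3.50.0 and the builds GRCh37 and hg19 are named, with no role, per the submitters' processing notes. Neither annotation nor strand setting is given in the sources used here, so a gene and an antisense partner may share reads. Per the labels' protocols, a Qiagen RNeasy kit gave total RNA, from which polyA-selected TruSeq libraries were made. Gene symbols came from RefSeq on GRCh38.p14 for 27745 of 28395 identifiers, and the other 650 held at most 0.039% of a library. The number of unused sample columns was 0.

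Counts were tested with edgeR 4.0.16 in R 4.3.3 (TMM, filterByExpr defaults, quasi-likelihood F test, two-sided, Benjamini-Hochberg over all genes tested). The 12 JJN3 libraries were fitted as 4 group means without a block, with 8 residual degrees of freedom. Log2 fold changes are given ± SE from the F statistic. Alternatives were the replicate block, other scalings, DESeq2 1.42.0, limma-voom 3.58.1, other filters and single libraries or replicate numbers left out. The fit of 6 libraries with a block for panobinostat on top of CX-5461 was added after seeing the data.

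Same-numbered vehicle and panobinostat libraries deviated together (correlations of 0.311, 0.332 and 0.283, all above 0.1), so the numbers from the labels can be taken to pair the samples. The pairing was used only in the fits with the replicate block and in the ratios within pairs. The main fit, which gave every value not marked as with the block, ignores it. A gene not called there may be called with the block, as 1824 were. Replicates of a group differed by more than sampling noise. Intervals and limits from counts cover counting error only, since the reads carry no molecular identifiers. The test was also run on simulated counts (11411 genes, 200 changed). It recovered 98% of 4-fold and 82% of 2-fold rises, 84.4% of 2-fold and 94% of 4-fold falls, with 11 unchanged genes called. Every simulated gene had the same biological coefficient of variation of 0.154, without a replicate effect. The data differ in both points and in the number of genes that changed, so these rates may not hold for them.

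Genes named are the 12 largest rises and falls (average log2 CPM of at least 3, groups not overlapping), up to 3 called members per list and direction with the smallest p, the most abundant member not called, a fixed panel, and the 8 genes with the most counts among those at 0 in a group. List members that failed the filter are named only where their counts are given. The comparison, the gene lists and this rule were chosen with earlier results of these data known. A few genes that the rule selects are not reported here.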

Additional observations from a re-analysis of the deposited data

Results flagged for a closer look

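For 17 of the 22 genes tested for a difference between the cell lines, the effect of panobinostat in JJN3 after subtracting that in MM1.S passed an adjusted p under 0.05 in the interaction term of the edgeR fit of 24 libraries. The difference was positive for 11 genes, on the log2 scale: TNFRSF17 6.21, POU2AF1 4.06, ITGB7 3.33, XBP1 3.13, FOXM1 2.97, MYC 2.78, PRDM1 2.39, MAF 2.37, CCND2 1.91, BCL2 1.78 and UBTF 1.49. It was negative for 6 genes: MCL1 -0.61, BCL2L11 -0.83, HEXIM1 -1.37, TXNIP -2.58, MALAT1 -2.77 and SYT11 -3.19. Single outlying samples were not tested for, since each group holds 3 libraries. Explanations for these differences were not tested.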

How the results depend on the processing

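With the replicate number as a block 4784 genes were called instead of 2964, of which 2223 were lower instead of 1248, and in the 6 libraries alone with the block 2097 were lower. A threshold of 0.01 left 1556 calls (953 higher, 603 lower), and a 2-fold minimum 1224 (1005 higher, 219 lower). Leaving out libraries gave 1023 to 2950 calls, 637 to 1704 higher and 386 to 1297 lower, the lowest without the 4 JJN3 libraries of replicate 1. For panobinostat on top of CX-5461 such fits gave 1958 to 3829 calls (1112 to 2122 higher, 846 to 1750 lower), and for JJN3 minus MM1.S 2663 to 4117 (1563 to 2381 higher, 1100 to 2075 lower). The cause was not tested beyond the smaller number of samples. Scaling, DESeq2, limma-voom, filters and removal of the 10 most abundant genes kept the counts within 1.5 times. Of 227 genes named by the rule 171 were called, 79 of them under every setting and 92 not under all, and 0 reversed. Genes with fewer than 3 counts in a library could not be told from 0 at this depth.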

Other observations

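Further gene groups held calls in both directions, some of them no more often than all genes. Of 30 cholesterol and fatty acid synthesis genes 6 fell and 3 rose (10.9% and 15.0% of all genes did), with the block 11 and 5, and without panobinostat replicate 3 the counts were 3 and 1. There were 0 rises without panobinostat replicate 1 or without vehicle replicate 3. FADS1, a fatty acid desaturase, had 197, 176 and 167 CPM with vehicle and 103, 127 and 90.2 CPM with panobinostat (log2 fold change -0.78 ± 0.14, edgeR adjusted p = 0.000795), and EBP, a sterol isomerase, had 112, 104 and 119 CPM with vehicle and 66.1, 67.6 and 89.4 CPM with panobinostat (log2 fold change -0.62 ± 0.12, edgeR adjusted p = 0.00138). Both had groups that did not overlap. Of 52 nuclear genes of oxidative phosphorylation 4 fell and 1 rose (7.69% and 1.92%), fewer than the 10.9% and 15.0% of all genes. With the block 9 fell and 4 rose, where 19.5% and 22.4% of all genes did, and 2 fell without panobinostat replicate 1 or 3 or vehicle replicate 1. NDUFB2, a subunit of the respiratory complex that takes electrons from NADH, had 165, 110 and 151 CPM with vehicle and 65.2, 56.8 and 71.7 CPM with panobinostat (log2 fold change -1.17 ± 0.18, edgeR adjusted p = 0.000184) and was lower in every panobinostat library. Of 9 chemokine and chemokine receptor genes tested 3 rose and 4 fell (33.3% and 44.4%, against 15.0% and 10.9% of all genes). The falls became 2 without panobinostat replicate 1 or vehicle replicate 1 and 1 without panobinostat replicate 3. CCL20, a chemokine, had 4.65, 7.74 and 5.83 CPM with vehicle and 21.4, 13.7 and 22.5 CPM with panobinostat (log2 fold change 1.63 ± 0.30, edgeR adjusted p = 0.000775), and CCR10, a chemokine receptor of plasma cells, had 33.3, 16.4 and 32.6 CPM with vehicle and 15.6, 9.05 and 14.7 CPM with panobinostat (log2 fold change -1.08 ± 0.28, edgeR adjusted p = 0.00996).

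Globin transcripts were present in JJN3. HBB had 536, 404 and 632 CPM with vehicle and 547, 445 and 938 CPM with panobinostat and was not called (edgeR adjusted p = 0.587). HBA2 had 1 count over the vehicle and 87 over the panobinostat libraries, a ratio of 96.0 with a 95% exact counting interval of 16.8 to 3830.0 (edgeR adjusted p = 8.11e-05). HBA2 has a near-identical copy, so its counts are uncertain. It could enter the test only through treated libraries, so nothing is read from its adjusted p.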
